A study of Homo sapiens with 6 samples.

Results

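The enzymes that reuse or break down pyrimidine nucleosides were examined in RNA-seq data of HaCaT keratinocytes with and without the receptor tyrosine kinase FGFR2. They are 10 genes out of 21475 genes measured, found in the tables by their Ensembl identifiers. The choice was by function, but with earlier results of these data known. The members are the nucleoside kinases *TK1*, *TK2*, *DCK*, *UCK1*, *UCK2* and *UCKL1*, the phosphorylases *UPP1* and *TYMP*, and the deaminases *CDA* and *DCTD*. HaCaT is a spontaneously immortalized human keratinocyte cell line. RNA came from 3 wild-type (WT) lines and 3 *FGFR2* knockout (KO) lines made with CRISPR/Cas9, grown in DMEM with fetal bovine serum and no added growth factor or cytokine, with 1 library per line. Each KO line was expanded from a single sorted cell, so that the difference between the genotypes cannot be told apart from differences between clones except by the spread between lines. In the numbering of the authors, line WT 1 is the starting population and the other WT lines are clones, although the sequenced WT lines are also described as clonal, and it is not stated that this numbering is that of the replicates.

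Pyrimidine nucleotides are built anew from glutamine and aspartate or recovered from nucleosides. In salvage, a kinase traps uridine, cytidine, thymidine or deoxycytidine in the cell as its monophosphate. Phosphorylases do the opposite and cleave the nucleoside into base and sugar phosphate, and deaminases convert cytosine compounds into uracil compounds. TK1 is the cytosolic thymidine kinase of proliferating cells, with a peak in S phase, and TK2 is its mitochondrial counterpart.

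The promoters of 4 of these genes are shown. *UPP1*, *UCK2* and *TK1* are among the members with the largest differences between KO and WT, and *TYMP* has the smallest. *DCTD*, whose log2 fold change rounds to the same value as that of *TK1* (0.65), is not shown. Each sequence is the 150 bases before the RefSeq start site in GRCh38.p14, read 5′ to 3′ on the strand of the gene. Capitals mark CCAAT boxes (CCAAT or ATTGG) and GC boxes (GGGCGG or CCGCCC), so that both strands are covered.
TK1 (chr17:78187053-78187202, minus strand): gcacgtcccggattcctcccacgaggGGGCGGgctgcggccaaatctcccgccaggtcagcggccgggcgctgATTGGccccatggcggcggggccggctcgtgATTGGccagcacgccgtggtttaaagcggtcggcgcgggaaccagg
UCK2 (chr1:165827464-165827613, plus strand): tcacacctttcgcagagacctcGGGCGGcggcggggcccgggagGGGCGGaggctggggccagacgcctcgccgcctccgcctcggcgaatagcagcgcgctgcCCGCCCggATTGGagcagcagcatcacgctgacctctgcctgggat
UPP1 (chr7:48089115-48089264, plus strand): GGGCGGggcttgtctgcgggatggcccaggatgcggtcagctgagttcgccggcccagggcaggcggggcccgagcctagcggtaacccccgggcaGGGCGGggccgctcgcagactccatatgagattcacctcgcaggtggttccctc
TYMP (chr22:50530013-50530162, minus strand): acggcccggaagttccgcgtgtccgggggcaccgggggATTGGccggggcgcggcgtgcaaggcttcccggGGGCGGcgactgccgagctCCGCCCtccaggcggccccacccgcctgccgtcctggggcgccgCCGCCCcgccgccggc

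All 10 members had an entry in the RefSeq promoter table, and the search covered the 250 bases before each start site. A CCAAT box was present in 3 of the 10 members: *TK1*, with its first base at -77 and at -46 from the start site, *UCK2* at -38 and *TYMP* at -112. In the whole table, 32% of 35116 promoters held one. The motif was thus present in *TYMP*, the member with the smallest difference, and absent from this window of *UPP1*, the member with the largest. It was also absent from that of *DCTD*, whose difference was like that of *TK1*. GC boxes occurred in 7 members and in 42.6% of all promoters, and the E-box CACGTG in 2 members (*DCK* and *UCKL1*) and in 6.34%. None of the 10 windows held one of the E2F sequences TTTCCCGC, TTTCGCGC, TTTGCCGC or TTTGGCGC (2.79% of all promoters), an AP-1 sequence (TGACTCA or TGAGTCA, 4.2%) or TATAAA (10.7%). The windows of *TK1* and *DCK*, for example, hold a stretch that differs from TTTCCCGC only in its first base, read on either strand. Only exact matches to the listed letters were sought, so the lack of a match does not exclude a related sequence. Such matches describe the letters of the window and not the binding of a factor, and other annotated transcripts of *TK1*, *UPP1* and *TYMP* start within or before the stretch shown.

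The values are FPKM, fragments normalized for transcript length and library depth. The depth of the libraries was estimated from the steps of the low values as 67400000 to 87700000 fragments. The genotype was visible in *FGFR2* itself, with 21.6, 39.7 and 15.02 FPKM in WT replicates 1 to 3 and 3.04, 2.26 and 4.31 FPKM in the KO replicates. Its log2 fold change was -2.73 (SE 0.36) and its adjusted p in limma was 0.261. This was the lowest value of the whole table, and many genes shared it, *UPP1*, *UCK2* and *TK1* among them. Summed FPKM of 6 keratinocyte markers lay between 10600 and 26490 in each library. Of the markers of other cell types, *DCN* (fibroblasts) was at 15.5 FPKM and *CDH5* (endothelium) at 4.92 FPKM in WT replicate 2, against at most 1.66 and 0.128 FPKM elsewhere, while *COL3A1*, *PTPRC*, *MLANA* and *TYR* were at or near 0 in all libraries. Others went another way: *LUM* (fibroblasts) was highest in KO replicate 1, at 1.85 FPKM against 0.903 FPKM in WT replicate 2. *VWF* (endothelium) was highest in WT replicate 3. Over all libraries *COL1A1* was at 6.82 to 16.7, *VWF* at 5.66 to 27.1 and *CD68* at 4.41 to 20.45 FPKM. The 6 fibroblast markers summed to 7.95 to 33.2 FPKM in WT and 6.90 to 12.6 FPKM in KO, the 4 immune markers to 11.6 to 20.5 and 4.49 to 10.98 FPKM, the 4 melanocyte markers to 0.881 to 2.44 and 0.708 to 1.06 FPKM, and the 3 endothelial markers to 18.1 to 27.2 and 5.82 to 17.5 FPKM. WT replicate 2 was the highest library for the first 3 of these sums, and member values that change most without it are given both ways.

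To determine whether loss of FGFR2 altered the salvage enzymes, KO and WT libraries were compared in a fit across all 12241 genes whose FPKM averaged 0.5 or more, the 10 members included. No member passed the test (limma, adjusted p of at most 0.05 and absolute log2 fold change of at least 0.5). The same was true of all genes, with 0 of 12241 called (0%). *FGFR2* itself was not called, so the lack of a call does not show a lack of change. At an unadjusted p of at most 0.05 and the same fold, 4 members were higher in KO (*UPP1*, *UCK2*, *TK1* and *DCTD*) and 0 were lower. Among all tested genes, 10.2% (1251 genes) were higher and 2.33% (285 genes) lower by this rule. The KO values of *TK1*, *UCK1* and *UCK2* lay above every WT value, as did those of 18.3% of tested genes, and no member had all KO values below all WT values, as 5.77% of tested genes did. Without WT replicate 2, *CDA* had its KO values below both remaining WT values. With median-of-ratios scaling the split of such genes changed from 2245 higher and 706 lower to 1512 higher and 1290 lower, and *UCK1* no longer separated the genotypes. The median log2 fold change of the members was 0.37, beside 0.09 over all tested genes. After subtraction of chromosome medians, these values were 0.22 and -0.02. In bulk RNA, fewer cells with a transcript and less of it per cell cannot be told apart.

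**Figure D1:**
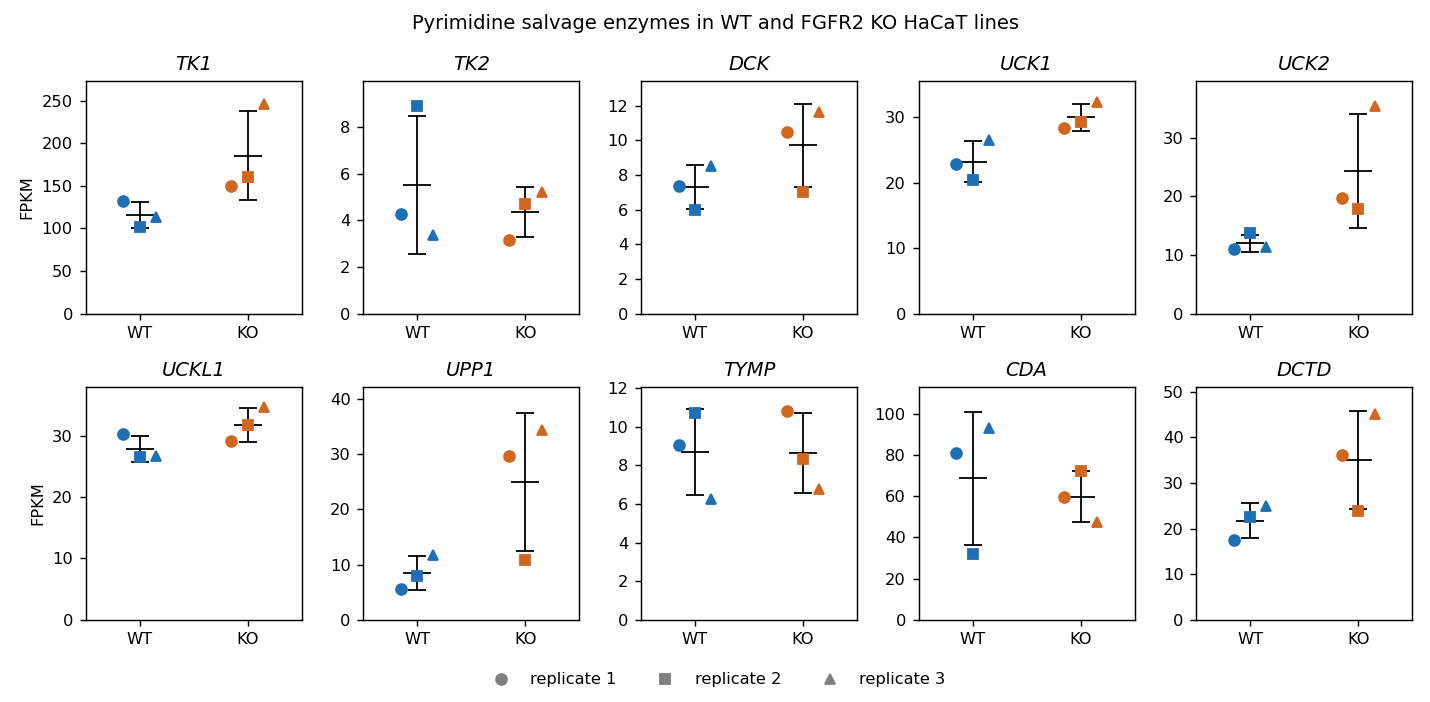
FPKM (vertical axis, from 0) of the 10 enzymes in the WT and KO lines; each point is 1 library, its shape gives the replicate, and bars give the mean and SD of 3 libraries. The KO points lie above all WT points for *TK1*, *UCK1* and *UCK2*, and the KO lines spread widely for *UPP1*, from 10.8 to 34.3 FPKM.

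Among the kinases, *TK1* (ENSG00000167900, chromosome 17, 78174091 to 78187233 in GRCh38, minus strand) was the most abundant member in both genotypes. It was at 132, 102 and 113 FPKM in WT replicates 1 to 3 and at 149.9, 161 and 246 FPKM in KO replicates 1 to 3. The groups did not overlap, and KO replicate 3 stood well above the others. On average, 116 ± 15.1 FPKM were measured in WT and 185 ± 52.4 FPKM in KO (SD, n = 3), a 1.60-fold difference. On the log2 scale the difference was 0.65 (SE 0.21, 95% interval 0.15 to 1.15), with a p of 0.0171 before and 0.261 after adjustment in limma. With 3 libraries against 3, the exact two-sided permutation test cannot give less than 0.1, the value that *TK1*, *UCK1* and *UCK2* reached.

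*TK2* (ENSG00000166548, chromosome 16, 66508003 to 66552544, minus strand), which supplies mitochondria with thymidine and deoxycytidine monophosphates, had the lowest level of the 10. Its WT values were 4.25, 8.91 and 3.38 FPKM and its KO values 3.16, 4.70 and 5.21 FPKM. WT replicate 2 was the highest of the 6 libraries, and the remaining 5 were mixed between the genotypes. The log2 fold change of -0.23 (SE 0.35, 95% interval -1.04 to 0.59) turned to 0.15 without WT replicate 2. *TK2* also had the least depth of the members, about 241 fragments per kilobase in WT replicate 3. Its exons share 457 annotated bases on the same strand with the gene ENSG00000260851, which was at 0.0423 to 0.575 FPKM. Reads from this stretch cannot be assigned to 1 gene with certainty.

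*DCK* (ENSG00000156136, chromosome 4, 70992538 to 71030914, plus strand) encodes deoxycytidine kinase, which phosphorylates deoxycytidine and purine deoxynucleosides and activates several nucleoside drugs. It was at 7.37, 5.995 and 8.53 FPKM in WT and at 10.5, 7.03 and 11.7 FPKM in KO. KO replicates 1 and 3 were above all WT libraries, whereas KO replicate 2 fell between them. The difference was 0.37 on the log2 scale (SE 0.23, exact permutation p = 0.3), with a 95% interval of -0.16 to 0.90 that includes no change. It was 0.58 without KO replicate 2 and 0.23 without KO replicate 3. On the same strand, exons of *DCK* share 199 annotated bases with *MOB1B*, which was at 4.59 to 5.38 FPKM, so reads from this stretch are also uncertain.

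The uridine-cytidine kinases are the entry of uridine and cytidine into the ribonucleotide pool. *UCK2* (ENSG00000143179, chromosome 1, 165827614 to 165911618, plus strand), the more active isoenzyme and the one typical of proliferating and tumour cells, was at 10.98, 13.7 and 11.3 FPKM in WT and at 19.7, 17.8 and 35.5 FPKM in KO. The WT lines were close together, and each KO line lay above them. The mean was 2.03-fold higher in KO (24.3 ± 9.71 against 12.0 ± 1.46 FPKM, SD, n = 3). This gave a log2 fold change of 0.93 (SE 0.26, 95% interval 0.32 to 1.54), with a p of 0.00844 before adjustment, the lowest among the members, and 0.261 after it in limma. *UCK1* (ENSG00000130717, chromosome 9, 131523801 to 131531264, minus strand), the more widely expressed isoenzyme, was at 22.8, 20.4 and 26.5 FPKM in WT and at 28.4, 29.3 and 32.3 FPKM in KO. These groups did not overlap either, but the gap between WT replicate 3 and KO replicate 1 was small. On the log2 scale they differed by 0.37 (SE 0.15, 95% interval 0.03 to 0.71), under the threshold of 0.5, and it was 0.16 with the chromosome medians removed. In that setting *UCK1* no longer separated the groups.

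*UCKL1* (ENSG00000198276, chromosome 20, 63939829 to 63956416, minus strand), a uridine kinase-like protein, had the smallest coefficient of variation of the members in WT, 7.5%, and a low one in KO, 8.7%. It was at 30.2, 26.5 and 26.7 FPKM in WT and at 29.1, 31.7 and 34.6 FPKM in KO. WT replicate 1 exceeded KO replicate 1, so the groups overlapped. Its log2 fold change was 0.19 (SE 0.13, 95% interval -0.12 to 0.50) and 0.01 with the chromosome medians removed.

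Of the phosphorylases, *UPP1* (ENSG00000183696, chromosome 7, 48088628 to 48108736, plus strand) had the largest difference of all members. UPP1 splits uridine into uracil and ribose-1-phosphate, which can feed glycolysis. Its level was 5.58, 7.98 and 11.7 FPKM in WT and 29.7, 10.8 and 34.3 FPKM in KO. KO replicates 1 and 3 were far above the WT range, while KO replicate 2 lay just below WT replicate 3, so that the groups overlapped by this pair. The mean was 24.9 ± 12.4 FPKM in KO and 8.42 ± 3.09 FPKM in WT (SD, n = 3), 2.96-fold apart. Its log2 fold change was 1.41 (SE 0.44, 95% interval 0.38 to 2.45), with a p of 0.0141 before and 0.261 after adjustment in limma. It was 1.92 without KO replicate 2 and 1.11 without KO replicate 3.

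*TYMP* (ENSG00000025708, chromosome 22, 50525752 to 50530032, minus strand) encodes thymidine phosphorylase, which degrades thymidine and was also described as platelet-derived endothelial cell growth factor. It was at 9.07, 10.7 and 6.29 FPKM in WT and at 10.9, 8.32 and 6.78 FPKM in KO. The libraries of both genotypes covered the same range, with averages of 8.69 ± 2.24 and 8.65 ± 2.06 FPKM (SD, n = 3). The log2 fold change of -0.00 had a 95% interval of -0.57 to 0.57, which includes differences of the size seen for *UCK1* and *DCK*. Exons of *TYMP* share 361 annotated bases with *SCO2* and 323 with *ODF3B* on the same strand, and reads from these stretches cannot be assigned to 1 gene with certainty. *SCO2* was at 8.68 to 10.2 FPKM in WT and 9.46 to 16.6 FPKM in KO, and *ODF3B* at 3.47 to 8.41 and 1.65 to 4.68 FPKM.

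Of the deaminases, *DCTD* (ENSG00000129187, chromosome 4, 182890060 to 182917936, minus strand) makes the dUMP that thymidylate synthase uses. It was at 17.5, 22.5 and 25.1 FPKM in WT and at 36.2, 23.8 and 45.2 FPKM in KO. As for *UPP1* and *DCK*, KO replicates 1 and 3 were above all WT libraries and KO replicate 2 was inside their range. The log2 fold change was 0.65 (SE 0.25, 95% interval 0.06 to 1.23), with a p of 0.0346 before and 0.276 after adjustment in limma. *CDA* (ENSG00000158825, chromosome 1, 20589086 to 20618903, plus strand), which deaminates cytidine and deoxycytidine and inactivates cytidine drugs, was the second most abundant member. It was at 81.1, 31.9 and 92.9 FPKM in WT and at 59.6, 72.2 and 47.3 FPKM in KO. The WT lines enclosed all KO lines, and WT replicate 2 was the lowest of the 6. The log2 fold change was -0.08 (SE 0.39, 95% interval -0.99 to 0.83). Without WT replicate 2 it was -0.56, and all KO values lay below the remaining WT values, and without WT replicate 3 it was 0.21.

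**Figure D2:**
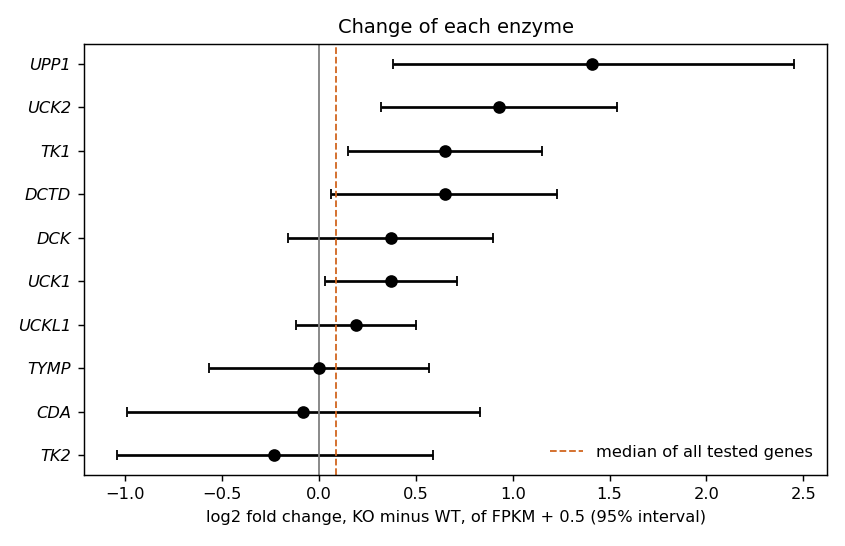
Log2 fold change of each enzyme, KO minus WT, of FPKM + 0.5 (horizontal axis), with its 95% interval from limma, beside the median of all tested genes (dashed line, 0.09). The intervals of *UPP1*, *UCK2*, *TK1*, *DCTD* and *UCK1* lie above 0, and none of the 10 enzymes passed the adjusted threshold.

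In WT, the order of mean FPKM was *TK1*, *CDA*, *UCKL1*, *UCK1*, *DCTD*, *UCK2*, *TYMP*, *UPP1*, *DCK* and *TK2*. The ranges of neighbours in this order were apart for *TK1* over *CDA*, *CDA* over *UCKL1*, *DCTD* over *UCK2* and *UCK2* over *TYMP*, and overlapped for the rest. In KO, the order was *TK1*, *CDA*, *DCTD*, *UCKL1*, *UCK1*, *UPP1*, *UCK2*, *DCK*, *TYMP* and *TK2*, with ranges apart for *TK1* over *CDA*, *CDA* over *DCTD*, *UCK2* over *DCK* and *TYMP* over *TK2*. Thus the thymidine kinase of the cytosol and cytidine deaminase led in both genotypes and the mitochondrial kinase was last.

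Enzymes with related reactions were compared within each library, where a common scale factor cancels. The ratio of *TK1* to *TK2* was 31.0, 11.4 and 33.4 in WT and 47.5, 34.2 and 47.1 in KO, and the groups were apart (exact permutation p = 0.1, the smallest possible). KO replicate 2 exceeded WT replicate 3 by little, and the log2 difference of 0.90 was 0.40 without WT replicate 2. The ratio of *UCK2* to *UCK1* was 0.481, 0.671 and 0.428 in WT and 0.693, 0.606 and 1.10 in KO, with overlap (exact permutation p = 0.2). *UPP1* relative to *TYMP* was at 0.615, 0.744 and 1.86 in WT and at 2.74, 1.3 and 5.06 in KO (exact permutation p = 0.2), so uridine phosphorylase transcripts outnumbered those of thymidine phosphorylase per length in all KO lines but in 1 of 3 WT lines. Finally, the ratio of *CDA* to *DCTD* was 4.62, 1.42 and 3.71 in WT and 1.65, 3.04 and 1.05 in KO (exact permutation p = 0.3). For the last 3 ratios the groups overlapped. Without WT replicate 2 they were apart for *UCK2* to *UCK1* and *CDA* to *DCTD*, with log2 differences of 0.77 instead of 0.58 and of -1.25 instead of -0.74. *UCK2* to *UCK1* was also apart without KO replicate 2 (0.75). *UPP1* to *TYMP* was apart without WT replicate 3 (1.95) or without KO replicate 2 (1.97), beside 1.47 with all libraries.

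**Figure D3:**
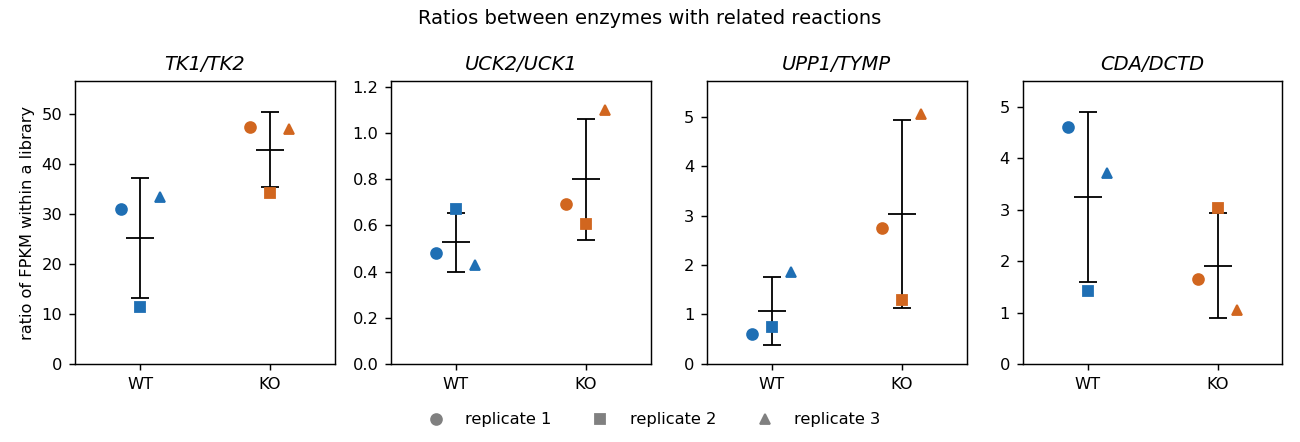
Ratio of the FPKM of paired enzymes within each library (vertical axis, from 0) in WT and KO lines; points are libraries, shapes give the replicate, and bars give the mean and SD of 3. The groups are apart for *TK1* over *TK2*, where the lowest KO ratio was 34.2 and the highest WT ratio 33.4, and overlap for the other ratios.

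The KO lines differed among each other. KO replicate 3 was the highest of the 6 libraries for 7 members (*TK1*, *DCK*, *UCK1*, *UCK2*, *UCKL1*, *UPP1* and *DCTD*), and WT replicate 2 was the lowest for 5 (*TK1*, *DCK*, *UCK1*, *UCKL1* and *CDA*). As log2 differences from the WT mean, the median over the members was 0.36, 0.20 and 0.56 in KO replicates 1 to 3, beside 0.10, 0.05 and 0.15 over all tested genes. The differences of *UPP1* were 1.82, 0.40 and 2.02 and those of *DCTD* 0.74, 0.14 and 1.06, with KO replicate 2 the lowest in both. For *UCK2* they were 0.70, 0.55 and 1.53, and for *TK1* 0.38, 0.48 and 1.09, where replicates 1 and 2 were alike and replicate 3 was higher. Without KO replicate 3 the log2 fold change was 0.63 for *UCK2* and 0.43 for *TK1*. Only *TYMP* and *CDA* were lower in KO replicate 3 than the WT mean, with differences of -0.31 and -0.39.

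**Figure D4:**
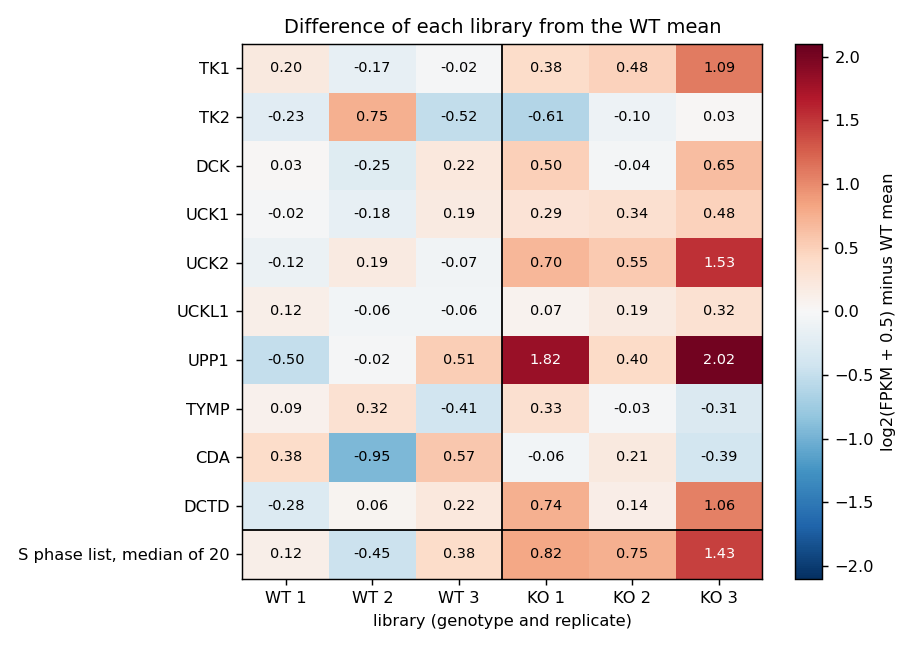
Difference of each library from the WT mean in log2(FPKM + 0.5), printed and coloured (red higher, blue lower), for the 10 enzymes (rows) and, in the last row, the median of 20 S phase genes; columns are libraries. KO replicate 3 has the highest value of the 6 libraries in 7 of the 10 enzymes and in the S phase list.

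Other measures were set beside these values. By the unadjusted rule, 10.2% of all tested genes were higher in KO and 2.33% lower, with a median log2 fold change of 0.09. The 20 genes of a list of S phase genes (*MCM2* to *MCM7*, *PCNA*, *CDC6* and others) were all higher in KO on average, 19 of them by the unadjusted rule, with a median log2 fold change of 0.97 and 0 called. Relative to the WT mean, their median log2 difference was 0.12, -0.45 and 0.38 in WT replicates 1 to 3 and 0.82, 0.75 and 1.43 in KO replicates 1 to 3, so that KO replicate 3 was the highest, as for 7 members, and WT replicate 2 the lowest, as for 5. By contrast, 10 genes of G2 phase and mitosis had a median log2 fold change of -0.05, with 3 higher and 7 lower. Interferon-stimulated genes (18 of 21 tested) had a median of 0.59, with 5 higher and 1 lower by the unadjusted rule, and were highest in KO replicate 2, where their median difference was 1.36, against 0.44 and 0.12 in KO replicates 1 and 3. The share of FPKM on genes of the mitochondrial genome was 27.6%, 21.5% and 22.2% in WT and 15.8%, 23.7% and 11.9% in KO. KO replicates 1 and 3, with the lowest shares, were those with the highest *UPP1*, *DCK* and *DCTD*. The part of these measures in the differences of the salvage enzymes was not tested. With FPKM scaled to the sum of nuclear genes, the median of the members was 0.29 and that of all tested genes 0.01, beside 0.37 and 0.09 on the deposited scale.

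The salvage enzymes were then placed beside the other genes of pyrimidine metabolism, 39 genes in 6 lists, of which 31 were tested. None was called, 17 were higher and 0 lower in KO by the unadjusted rule, and their median log2 fold change was 0.61. Over all tested genes, 10.2% were higher and 2.33% lower by this rule, with a median of 0.09. The lists were chosen with earlier results of these data known. The 10 genes of de novo synthesis of pyrimidine nucleotides and deoxynucleotides were all higher on average, 8 by the unadjusted rule, with a median of 0.78. *CAD*, which carries the first 3 steps of the pathway, was at 13.2, 12.0 and 18.7 FPKM in WT and at 36.2, 34.2 and 72.6 FPKM in KO (log2 fold change 1.61, SE 0.31). *CTPS1*, a CTP synthase, was at 6.69, 4.49 and 10.6 FPKM in WT and at 18.3, 16.7 and 36.3 FPKM in KO (1.63, SE 0.37). Both were thus apart between the genotypes and, among the KO lines, highest in replicate 3. Also higher by this rule were *DHODH* (log2 fold change 1.15), *UMPS* (0.72), *TYMS* (0.81), *RRM1* (0.53) and *RRM2* (1.09).

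Nucleosides enter through transporters, and *SLC29A1*, the main equilibrative one, was at 19.9, 14.1 and 28.6 FPKM in WT and at 37.7, 35.5 and 73.3 FPKM in KO (log2 fold change 1.18, SE 0.34). It was the transporter gene, out of 3 tested, that was higher by the unadjusted rule. The concentrative transporters *SLC28A1*, *SLC28A2* and *SLC28A3* were below the filter. After the salvage kinases act, nucleotide kinases add further phosphates, and 4 of 9 were higher by this rule: *DTYMK* (0.61), *NME1* (1.23), *NME2* (0.64) and *NME4* (0.60). *NME1* and *NME2* are neighbouring genes of similar sequence, and a separate entry, *NME1-NME2*, was at 0.644 to 2.03 FPKM. Their separate values are therefore uncertain. All 3 genes that limit deoxynucleotides were higher by this rule, with log2 fold changes of 0.93 for the dUTPase gene *DUT*, 0.93 for *DCTPP1* and 0.99 for the dNTP hydrolase gene *SAMHD1*.

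Other genes work against salvage. Of the 5′-nucleotidases, which remove the phosphate that the kinases add, 5 of 6 were tested and *NT5C3B* was higher by the unadjusted rule, at 18.8, 14.2 and 16.8 FPKM in WT and 28.1, 26.4 and 40.2 FPKM in KO (log2 fold change 0.89, SE 0.20), while *NT5M* was below the filter. For the catabolism of the pyrimidine ring, only *DPYD*, the first and rate-limiting enzyme, was tested. It was at 7.55, 10.4 and 3.68 FPKM in WT and at 7.04, 9.05 and 13.3 FPKM in KO, and the groups overlapped (log2 fold change 0.48, SE 0.37). *UPB1* and *UPP2* were below 0.5 FPKM in all libraries, and *DPYS* and *AGXT2* were listed at 0 in all of them. Transcripts of the enzymes after DPYD, which act mainly in liver and kidney, thus did not pass the filter in these keratinocytes.

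**Figure D5:**
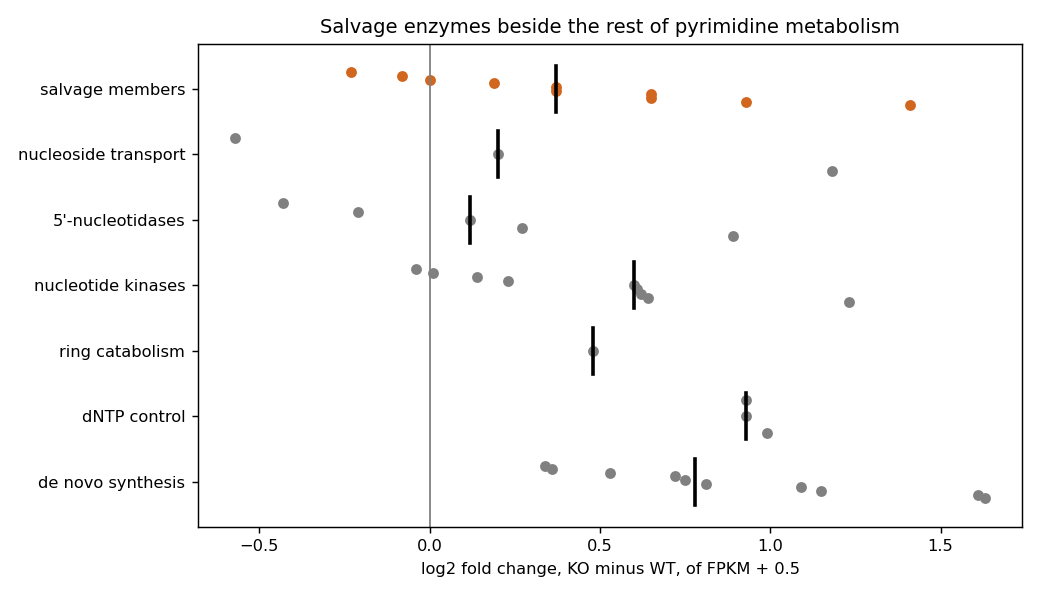
Log2 fold change, KO minus WT, of FPKM + 0.5 (horizontal axis) of the tested salvage enzymes (orange) and of the tested genes of 6 other pyrimidine lists (grey); each point is a gene and black bars are list medians. The median is 0.37 for the salvage enzymes and 0.78 for the 10 genes of de novo synthesis, all of which lie above 0.

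Genes with a profile over the 6 libraries most like that of *UPP1*, the member with the largest difference, were sought by the root-mean-square difference of log2(FPKM + 0.5) after centring each gene on its mean. The nearest of the tested genes were *PALS2* (0.219), *SNX10* (0.268) and *PSMG1* (0.269). *PALS2* (24573268 to 24694193) and *SNX10* (26291862 to 26374383) lie on chromosome 7, as *UPP1* does, and *PSMG1* on chromosome 21. Chromosome 7 holds 4.6% of tested genes. The location of these genes is no test of a regional difference, because they were picked by their likeness to *UPP1* in these same libraries. *SNX10* was also tested only because of KO replicates 1 and 3, where *UPP1* was highest. Whether a part of this chromosome differs between the lines was not tested. *PALS2*, which encodes a scaffold protein of cell polarity, was at 0.789, 0.669 and 1.55 FPKM in WT and at 3.80, 1.67 and 5.19 FPKM in KO. *PSMG1*, which encodes a chaperone of proteasome assembly, was at 9.22, 10.1 and 15.9 FPKM in WT and at 27.0, 17.3 and 45.2 FPKM in KO. As the rule that picked them would have it, both had KO replicates 1 and 3 above KO replicate 2, like *UPP1*. *SNX10*, which encodes a sorting nexin, was near the lower limit in WT, at 0.0877, 0.0956 and 0.181 FPKM, and at 1.43, 0.245 and 1.44 FPKM in KO, and passed the filter only through KO replicates 1 and 3. Among the members themselves, the profiles of *UCK1* and *UCKL1* were nearest to each other (0.156), followed by *DCK* and *UCK1* (0.195) and *DCK* and *DCTD* (0.236).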

How the data were processed

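Poly(A) RNA libraries (TruSeq Stranded mRNA) of 3 WT and 3 *FGFR2* KO HaCaT lines were analysed. Per the labels and methods, the authors trimmed reads with fastp 0.20.0 and pseudoaligned them with kallisto 0.46.1 to GRCh38, and they deposited FPKM per gene; how FPKM were calculated is not given in the sources used here. Of 21493 rows, 18 Y copies that repeat X values were left out, and 21400 of 21475 genes received a symbol from GENCODE. Between 50.6% and 71.2% of low values were whole fragments within 0.02, so reads were not recovered and count tests were not run.

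The 12241 genes whose FPKM averaged 0.5 or more were fitted in R 4.3.3 with limma 3.58.1, using log2(FPKM + 0.5), a mean-variance trend and Benjamini-Hochberg adjustment over all tested genes; fold changes on this scale understate those of low genes. The script was tested on simulated data with a fixed spread that was not taken from these lines, so that test does not give the power here. The genes named are all members, the other pyrimidine genes past the unadjusted rule or not measured, the 3 genes nearest to the member with the largest difference, and companion lists, except 1 gene that is not reported here; markers and overlapping genes were named after their values were seen. Members and lists were chosen with earlier results of these data known. Alternatives were pseudocounts, filters, scalings, library weights, a replicate block, eBayes without trend and leaving out each library.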

Additional observations from a re-analysis of the deposited data

How the results depend on the processing

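With library weights, which gave WT replicate 1 a weight of 10.264 and the other libraries 0.358 to 1.495, limma called 1396 genes, 3 members and 16 of the other pyrimidine genes, against 0 of each in the unweighted fit. The members were *UCK2* (log2 fold change 0.89, adjusted p = 0.0313), *UPP1* (1.91, adjusted p = 0.0313) and *DCTD* (0.88, adjusted p = 0.035); over all alternatives their adjusted p ranged up to 0.602, 0.634 and 0.669. *FGFR2* was then at -2.66. No other alternative called a gene. The median of the members was 0.28 with median-of-ratios scaling, 0.27 with quantile normalization, 0.29 with scaling to nuclear FPKM and 0.22 with chromosome medians removed, beside all-gene medians of -0.00, -0.01, 0.01 and -0.02. Leaving out 1 library gave 0.26 (without WT replicate 2) to 0.48 (without WT replicate 3 or KO replicate 2), and 0.27 without KO replicate 3. The number of members whose groups do not overlap was then 3 to 6, with 5 without WT replicate 3 (*UPP1* and *DCTD* added) and 6 without KO replicate 2 (*DCK*, *UPP1* and *DCTD* added). Over all tested genes, 2245 higher and 706 lower became 3477 and 1384 in the former setting and 3847 and 1595 in the latter. Without WT replicate 2 (3315 and 1072), *CDA* was added as lower. The same omissions, tried for the enzyme ratios after the data had been seen, reversed none of them. Leaving out 1 library moved *CDA* from -0.56 to 0.21, *TK2* from -0.49 to 0.15 and *TYMP* from -0.20 to 0.16. Signs changed for *CDA* (0.11 without WT replicate 1, 0.21 without WT replicate 3, 0.08 without KO replicate 3), *TK2* (0.15 without WT replicate 2) and *TYMP* (0.00026 with a pseudocount of 0.1, 0.04 with TPM scaling, 0.09 with library weights, 0.04 and 0.16 without WT replicates 1 and 2, 0.01 and 0.15 without KO replicates 2 and 3). The cause of these changes was not tested. *TK1*, *DCK*, *UCK1*, *UCK2*, *UCKL1*, *UPP1* and *DCTD* stayed higher in KO under all 18 alternatives.

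With the replicate number as a block, 0 members were called and their median was 0.37. The lowest adjusted p of the members in limma was 0.137, for *UPP1*, and that of *FGFR2* was 0.0972. Deviations of libraries with the same number correlated at -0.206, 0.225 and 0.049, and those with different numbers at -0.367 to 0.294. With 3 libraries per group, these values cannot decide whether the numbers pair the samples. Depth limits *TK2* most, and nothing in the sources states that the lines were grown or prepared in separate batches.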

Other observations

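Chromosome medians of the log2 difference from WT, taken relative to the median over all genes in the library, were 0.00, -0.02 and 0.01 in WT replicates 1 to 3 and 0.01, -0.01 and -0.01 in KO replicates 1 to 3 for the 563 tested genes of chromosome 7, which holds *UPP1*. For chromosome 17, which holds *TK1*, they were 0.10, 0.10 and -0.20 in WT and -0.02, 0.15 and 0.09 in KO, and for chromosome 9, which holds *UCK1*, 0.06, -0.15 and 0.10 in WT and 0.08, 0.08 and 0.08 in KO. A median over a whole chromosome does not show a difference confined to a part of it.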
